A study of Mus musculus with 105 samples.

Results

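The 9 genes Pou5f1, Sox2, Sall4, Utf1, Dppa2, Dppa4, Dppa5a, Fbxo15 and Tdh were chosen by name, out of 52016 genes in the count tables, to find out which of them are still expressed once mouse embryonic stem cells (ESCs) leave the naive state, and in what share of the cells. All 9 were counted in every bulk library and passed the filter on low counts. The cells were female ESCs of the line TX1072 (clone A3), a hybrid of C57BL6/J (B6) and Cast/EiJ (Cast). In this line the B6 copy of Xist can be induced with doxycycline, through the activator rtTA, whose transgene sits in Rosa26. TXdXicB6 (clone A1) and TXdXicCast (clone A6) were made from it, each a single clone, by deletion of the region around Xist on the B6 or on the Cast chromosome. Cells were kept naive in serum with LIF and 2i, a pair of inhibitors of Gsk3 and MEK (day 0), and were sampled 1, 2, 3 and 4 days after LIF and 2i had been withdrawn on fibronectin in medium with 10% serum. Bulk RNA was sequenced from 3 differentiations per line and day, each started on another date, at a depth of 19827011 to 39628784 counts per library in TX1072, 20246434 to 49962859 in TXdXicB6 and 16906263 to 57920260 in TXdXicCast. Single TX1072 cells came from 1 culture per day, the culture of bulk replicate 1, and 1472 cells were retained. The RNA of TXdXicCast at day 0 was degraded and was fragmented more mildly than that of the other deletion line samples, so at day 0 the clone and the RNA preparation cannot be told apart.

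Pou5f1 (Oct4), a POU-domain transcription factor, and Sox2, its HMG-box partner, bind DNA together at many genes of the pluripotent state, and the zinc-finger factor Sall4 acts with them. In the embryo Pou5f1 outlasts the naive epiblast and is kept up to gastrulation. Within the epiblast, factors such as Klf4, Esrrb and Prdm14 mark the naive state. Utf1 is a chromatin-bound protein of pluripotent cells. Dppa2 and Dppa4 are neighbouring genes for small DNA-binding proteins that work as a pair at bivalent promoters, and Dppa5a codes for an RNA-binding protein of early embryos and ESCs. Fbxo15, an F-box gene that Pou5f1 and Sox2 activate, served as a reporter in early reprogramming work. Tdh is threonine dehydrogenase, the mitochondrial enzyme through which mouse ESCs turn threonine into glycine and acetyl-CoA.

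Promoter sequence was available for 3 of the 9 genes in the RefSeq table used here (build GRCm38.p6), and the 3 took different courses in TX1072: Pou5f1 first passed as lower than at day 0 on day 3 and Sox2 on day 1, while Utf1 passed as higher from day 1 to day 4. Their upstream windows are printed from 5′ to 3′ on the + strand, up to the first base of an annotated transcript, as chr17:35505782-35506017 (236 bases), chr3:34649745-34649994 (250 bases) and chr7:139943606-139943788 (183 bases). Capitals mark the GC box GGGCGG on either strand, which was added to the search after the sequences had been seen.
Pou5f1: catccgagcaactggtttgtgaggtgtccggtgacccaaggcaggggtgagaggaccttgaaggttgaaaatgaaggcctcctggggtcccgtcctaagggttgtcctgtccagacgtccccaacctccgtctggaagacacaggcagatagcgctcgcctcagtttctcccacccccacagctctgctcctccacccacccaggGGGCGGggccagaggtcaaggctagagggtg
Sox2: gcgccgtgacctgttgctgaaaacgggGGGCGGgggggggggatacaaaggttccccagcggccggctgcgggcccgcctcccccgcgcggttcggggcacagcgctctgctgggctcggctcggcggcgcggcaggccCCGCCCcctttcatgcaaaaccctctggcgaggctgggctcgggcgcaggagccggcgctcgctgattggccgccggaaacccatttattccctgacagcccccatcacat
Utf1: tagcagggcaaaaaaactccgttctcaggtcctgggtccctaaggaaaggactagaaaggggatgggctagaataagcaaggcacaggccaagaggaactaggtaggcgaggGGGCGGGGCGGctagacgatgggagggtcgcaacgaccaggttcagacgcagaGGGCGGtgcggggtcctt
The full windows of Pou5f1 and Utf1, set by the starts in that table, end at bases 35506031 and 139943855. Both ends lie past the gene starts given below, which come from another annotation. Full windows of 250 bases held 1 GC box in Pou5f1, 2 in Sox2 and 4 in Utf1, of which the last lies past the printed stretch and 2 overlap by 1 base. Of 32851 such windows of mouse genes, 32.7% held a GC box, so its presence does not set the 3 genes apart. Neither the octamer ATGCNAAT of POU factors, found in 2.86% of all windows, nor the Sox motif CATTGTT, found in 3.29%, was in these 3 windows on either strand. A window before a second annotated start of Pou5f1, chr17:35508557-35508806, held no GC box and 1 Sox motif, at bases 92 to 98 of the window on its minus strand.

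In TX1072, 8 of the 9 genes were lower at day 4 than at day 0 and 1, Utf1, was higher (edgeR, adjusted p under 0.05). Of all 18871 genes tested, 29.4% were lower and 30.2% higher at day 4. The sizes ran from a fall of 3.32 on the log2 scale for Tdh to a rise of 0.94 for Utf1, with a median over the 9 genes of −1.0 beside −0.03 over all genes. Levels are given as CPM, a gene's count relative to the library size after TMM scaling, for replicates 1, 2 and 3, and a lower level in bulk can mean fewer cells with the transcript or less of it per cell, which cannot be told apart there. The genes fell into 3 courses, a late fall (Pou5f1, Sall4), a fall that had begun by day 1 (Sox2, Dppa5a, Fbxo15, Tdh) and a rise at day 1 followed by a decline (Utf1, Dppa2, Dppa4). Fbxo15 did not descend at every step: it stood at 18 ± 0.351% of its day 0 level on day 2 and at 21.8 ± 1.06% on day 3 (mean ± SD, n = 3), without overlap, a step of 0.27 ± 0.13 that did not pass (edgeR, adjusted p = 0.152). The means of TXdXicB6 (19.5 ± 2.56% and 20.1 ± 3.17%) and TXdXicCast (27.8 ± 4.91% and 31.8 ± 7.28%) were also higher on day 3, with overlap.

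Pou5f1 (chr17:35506018-35510772) stood at 908, 1138 and 1316 CPM at day 0 and at 1045, 1307 and 1080.5 CPM at day 1, and these ranges overlap. At day 2 it was at 901, 983 and 890.3 CPM, with 1 library still above the lowest of day 0, and only from day 3 on did the ranges separate. The difference of day 2 from day 0 was −0.28 ± 0.12 (log2, SE) and did not pass (edgeR, adjusted p = 0.0638), but passed with the replicate number as a block (adjusted p = 0.0475). At day 4 the 3 libraries lay close together at 552, 550.4 and 573 CPM and the fall of −1.0 ± 0.12 passed (edgeR, adjusted p = 1.35e-06). Sall4 (chr2:168748332-168767943) changed least of the 3 transcription factors. It had 333, 539.8 and 388 CPM at day 0, 386, 410.1 and 346 CPM at day 3 and 268, 326 and 284 CPM at day 4. Only at day 4 did its libraries all lie below those of day 0, by −0.52 ± 0.15 (edgeR, adjusted p = 0.0052), and this call rests on the high second library of day 0: without it the difference was −0.30 with an adjusted p of 0.0502.

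Sox2 (chr3:34650405-34652461) had 358, 239 and 307 CPM at day 0, 208, 156 and 194 CPM at day 1 and 44.5, 40.1 and 60.1 CPM at day 4. Every library of days 1 to 4 lay below every library of day 0. It was down by −0.70 ± 0.21 at day 1 (edgeR, adjusted p = 0.0114) and by −2.64 ± 0.23 at day 4 (adjusted p = 1.06e-08), with the day 1 call lost when the highest library of day 0, replicate 1, was left out (−0.55, adjusted p = 0.0574). Pou5f1 and Sox2, which act together on DNA, thus differed in their course: at day 4 Pou5f1 kept 50.9 ± 8.92% of its day 0 level (mean ± SD of the 3 replicate pairs) and Sox2 16.2 ± 3.61%, and the 2 ranges do not overlap.

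Utf1 (chr7:139943789-139945112) was the one gene above its naive level on every later day. It had 28.8, 34.7 and 41.9 CPM at day 0, 146, 227 and 159 CPM at day 1 and 46.0, 82.0 and 73.2 CPM at day 4. No library of days 1 to 4 reached down to those of day 0. The rise was 2.34 ± 0.22 at day 1 (edgeR, adjusted p = 8.12e-08) and 0.94 ± 0.21 at day 4 (adjusted p = 0.000904). Dppa2 (chr16:48303908-48319723) and Dppa4 (chr16:48283733-48294237), adjacent on chromosome 16, rose at day 1 as well and were below day 0 by day 4. Dppa2 had 51.4, 62.1 and 46.9 CPM at day 0, 98.2, 94.9 and 110.5 CPM at day 1 and 19.3, 30.9 and 41.1 CPM at day 4. Dppa4 had 62.1, 57.8 and 54.1 CPM at day 0, 126, 126 and 119 CPM at day 1 and 35.8, 47.9 and 47.8 CPM at day 4. In both the day 1 libraries were all above and the day 4 libraries all below those of day 0. Dppa2 rose by 0.92 ± 0.18 at day 1 and was at −0.81 ± 0.18 at day 4, and Dppa4 rose by 1.09 ± 0.12 and was at −0.40 ± 0.12 (edgeR, adjusted p = 0.000439, 0.00097, 3.92e-07 and 0.00562). The small fall of Dppa4 depends on the scaling, since with library sizes alone it was −0.26 and did not pass (adjusted p = 0.0683).

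Dppa5a (chr9:78367052-78368177), Fbxo15 (chr18:84934782-84981473) and Tdh (chr14:63492347-63509092) lost most of their transcript, and each was already lower at day 1. Dppa5a had 2082, 1869.6 and 1903 CPM at day 0, 1062, 987 and 1013 CPM at day 1 and 286, 439 and 451 CPM at day 4. Fbxo15 had 282, 243 and 218 CPM at day 0, 91.7, 73.6 and 84.5 CPM at day 1 and 21.6, 26.8 and 28.3 CPM at day 4. Tdh had 754, 856 and 723 CPM at day 0, 289, 329.9 and 299 CPM at day 1 and 67.3, 92.5 and 73.2 CPM at day 4. For all 3 genes the days separate fully, day 0 above day 1 above day 4. The falls at day 4 were −2.31 ± 0.14 for Dppa5a, −3.27 ± 0.15 for Fbxo15 and −3.32 ± 0.17 for Tdh (edgeR, adjusted p = 1.07e-10, 1.62e-12 and 7.17e-12). Dppa5a nevertheless stayed the most abundant member per exon length, at 3153 RPKM (CPM divided by exonic length in kilobases) at day 0 and 634 at day 4. On that scale Pou5f1 went from 498 to 248 RPKM, Tdh from 297 to 29.7, Sox2 from 147 to 23.4, Sall4 from 75.9 to 52.9, Fbxo15 from 73.7 to 7.62, Dppa4 from 34.9 to 26.4, Utf1 from 28.6 to 54.7 and Dppa2 from 21.8 to 12.4. Sall4, at a lower level than Sox2 at day 0, was thus above it at day 4.

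**Figure D1:**
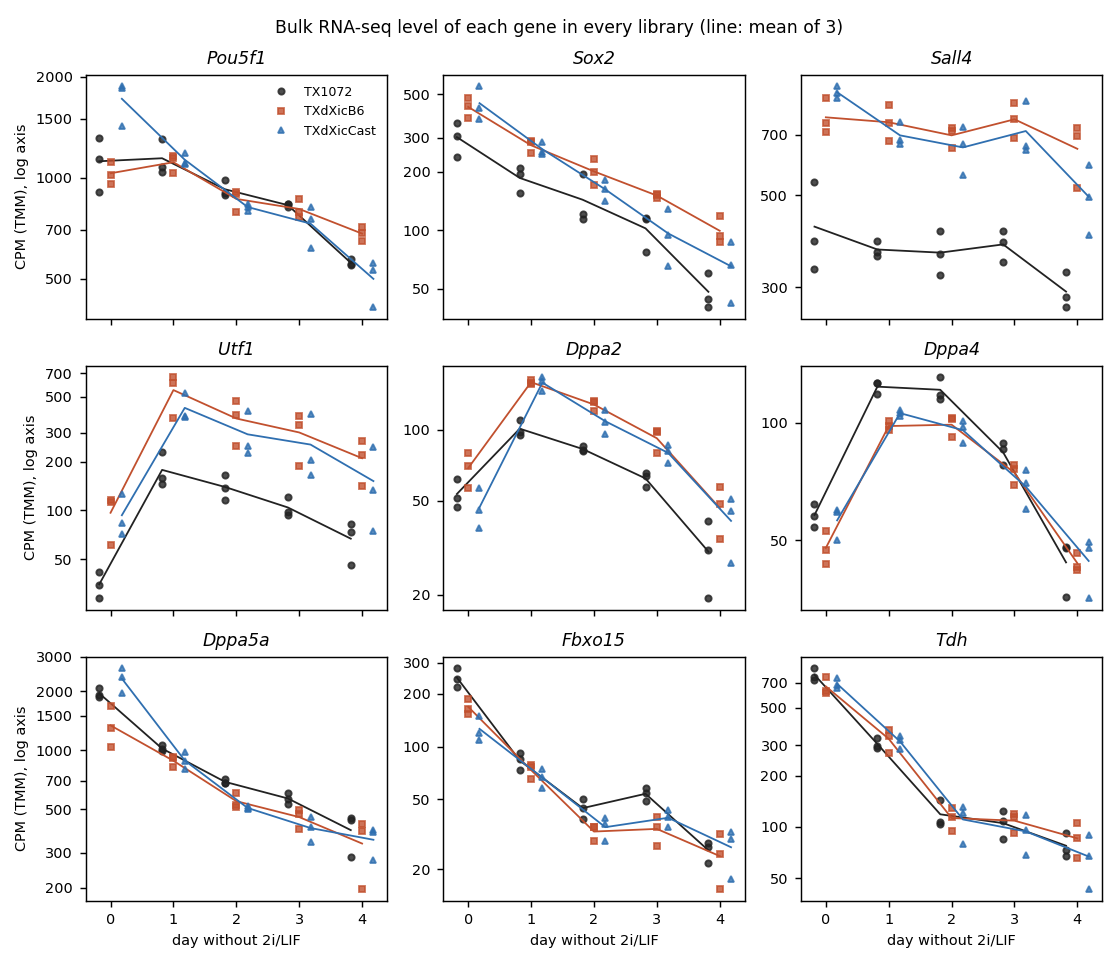
Level of each of the 9 genes in CPM on a log axis against the day of differentiation, with 1 point per bulk library and 1 line through the means of TX1072, TXdXicB6 and TXdXicCast. Utf1, Dppa2 and Dppa4 peak at day 1 or 2, Dppa5a, Fbxo15, Sox2 and Tdh are below day 0 from day 1 on, with a higher mean of Fbxo15 on day 3 than on day 2, and Pou5f1 and Sall4 change least in TX1072 before day 4.

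Ordered by the share of the day 0 level left at day 4 in TX1072, Utf1 came first with 190.4 ± 40.5% (mean ± SD, n = 3), followed by Dppa4 with 76.3 ± 16.4%, Sall4 with 71.4 ± 10.3%, Dppa2 with 58.4 ± 26.2%, Pou5f1 with 50.9 ± 8.92%, Dppa5a with 20.3 ± 5.70%, Sox2 with 16.2 ± 3.61%, Fbxo15 with 10.6 ± 2.69% and Tdh with 9.95 ± 0.953%. Only 2 pairs of neighbours in this order have ranges that do not overlap, Utf1 with Dppa4 and Pou5f1 with Dppa5a. Among genes that are not neighbours in the lowest 4, Dppa5a did not overlap Fbxo15 or Tdh, nor did Sox2 overlap Tdh. Dppa2 had the widest spread, from 37.5% in replicate 1 to 87.8% in replicate 3.

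**Figure D2:**
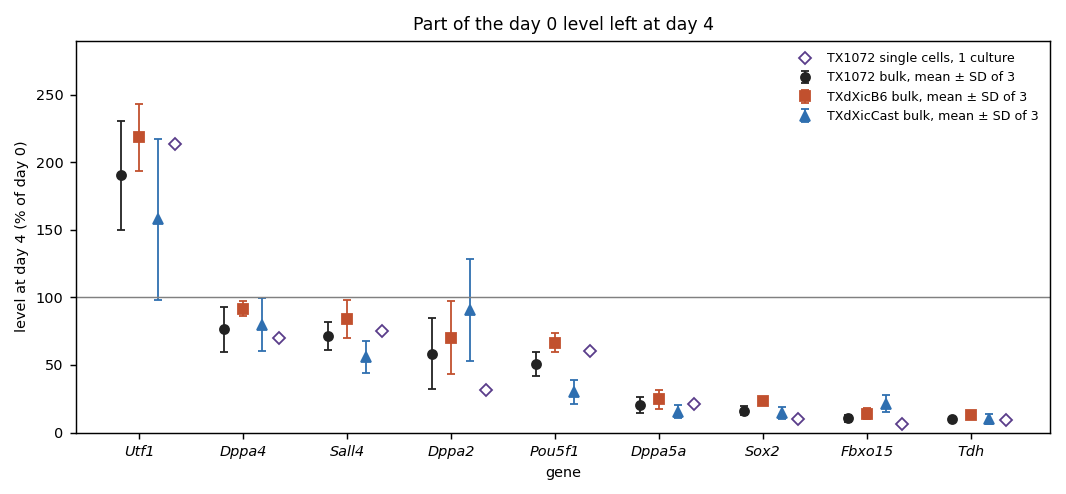
Level at day 4 as a percent of day 0 for each gene and line (points with bars, mean ± SD of 3 replicates) and for the summed single TX1072 cells (diamonds, 1 culture per day). In all 3 lines Utf1, Dppa4, Dppa2 and Sall4 keep over 50% of the day 0 mean and Sox2, Dppa5a, Fbxo15 and Tdh keep less than 25%.

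Day by day, 4 of the 9 genes were lower than at day 0 on day 1 (23.4% of all genes) and 3 were higher (23.5%). On day 2 the counts were 4 lower (27.2%) and 3 higher (28.8%), and on day 3 they were 5 lower (27.9%), with Pou5f1 now among them at −0.43 ± 0.12 (edgeR, adjusted p = 0.00576), and 2 higher (28.1%), with Dppa2 overlapping its day 0 range again. Compared with the day before, 3 genes were lower on day 2 (18.9% of all genes), namely Dppa5a, Fbxo15 and Tdh, and none was higher (20.3%), by edgeR, by DESeq2 or at an unadjusted p under 0.05. Tdh made the largest of these steps, −1.37 ± 0.15 (adjusted p = 1.39e-06). Pou5f1 stepped by −0.31 ± 0.12 from day 1 to day 2 and did not pass (adjusted p = 0.0561), though it passed with the replicate block (0.037). From day 2 to day 3 Dppa4 alone was lower (12.9%), by −0.53 ± 0.11 (adjusted p = 0.00195), and none was higher (13.8%) by either tool or at an unadjusted p under 0.05. From day 3 to day 4, 8 of 9 were lower, where 11.9% of all genes were, and none was higher, where 16.0% of all genes were (likewise 0 by DESeq2 and at an unadjusted p under 0.05). This step was largest for Sox2 (−1.08 ± 0.22), Fbxo15 (−1.07 ± 0.14) and Dppa2 (−1.03 ± 0.19) and smallest for Tdh (−0.44 ± 0.15) among those that passed (edgeR, adjusted p = 0.00115, 1.94e-05, 0.000486 and 0.0394). Sall4 differed by −0.38 ± 0.15 (adjusted p = 0.0643, and 0.0363 with the replicate block). The calls for Tdh and Utf1 in this step are lost when single libraries are left out, Tdh without replicate 1 of day 3 (−0.32, adjusted p = 0.182) or of day 4 (−0.35, 0.157) or replicate 3 of either day (−0.42, 0.0988, and −0.40, 0.121), and Utf1 without replicate 2 of day 3 (−0.52, 0.12) or replicate 1 of day 4 (−0.42, 0.142).

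**Figure D3:**
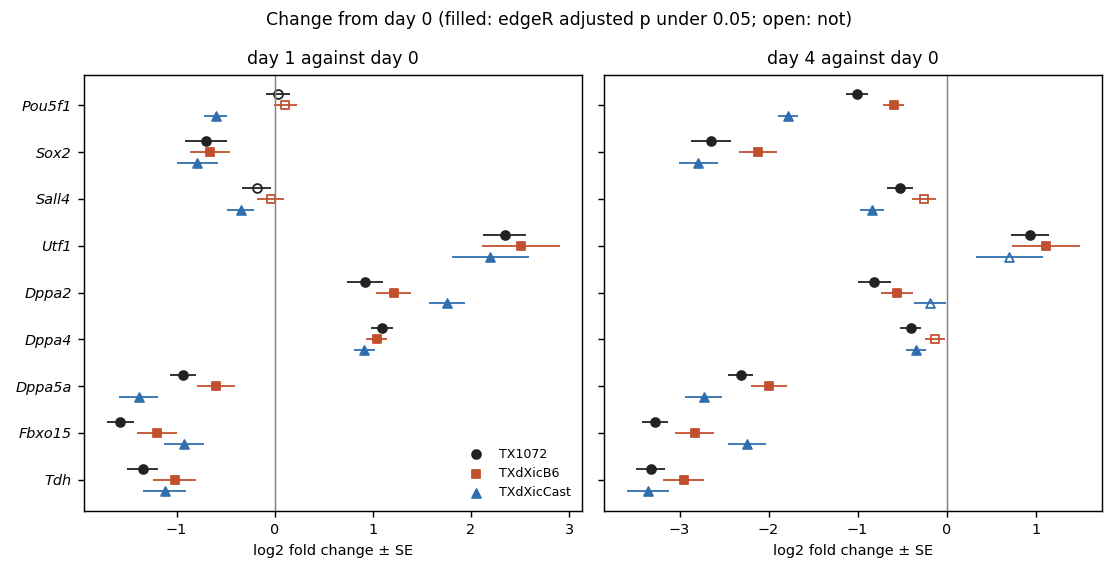
Log2 fold change from day 0 to day 1 and to day 4 for each gene in each line (points, edgeR estimate; bars, SE), with filled points where the adjusted p was under 0.05. Utf1, Dppa2 and Dppa4 are right of 0 at day 1 in all 3 lines, and at day 4 Sox2, Dppa5a, Fbxo15 and Tdh are at −2.0 or lower on the log2 scale in every line.

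Both deletion lines served as a further pair of time courses, made with another library kit and sequencer. In TXdXicB6, 4 genes were lower at day 1 (21.8% of 19885 genes tested) and 3 were higher (23.9%), the same genes as in TX1072, although Dppa5a (−0.60 ± 0.19, adjusted p = 0.0133 by edgeR) was not called without replicate 1 of day 0 (−0.40, 0.124) or replicate 2 of day 1 (−0.54, 0.0531). At day 4, 6 were lower (29.5%) and Utf1 alone was higher (30.0%). TXdXicCast had 6 lower at day 1 (28.3%), Pou5f1 and Sall4 in addition, and 3 higher (30.6%). At day 4 it had 7 lower (33.6%) and none higher (36.2%) by edgeR, by DESeq2 or at an unadjusted p under 0.05. Utf1 in TXdXicB6 had 113, 115 and 61.7 CPM at day 0, 612, 666 and 373 CPM at day 1 and 268, 219 and 141 CPM at day 4, without overlap of days 1 or 4 with day 0. Its rise at day 4, 1.11 ± 0.38 (edgeR, adjusted p = 0.0133), was not called without replicate 3 of day 0 (0.88, 0.0759) or replicate 1 of day 4 (0.90, 0.0678). In TXdXicCast Utf1 had 126, 71.1 and 83.7 CPM at day 0 and 246, 134 and 74.7 CPM at day 4, where the ranges overlap, and 0.70 ± 0.38 did not pass (adjusted p = 0.0989), while with the replicate block 0.60 did (0.000853).

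Tdh ended at 12.8 ± 2.05% of day 0 in TXdXicB6 and 9.90 ± 3.82% in TXdXicCast, Fbxo15 at 14 ± 4.09% and 21.3 ± 6.29%, Sox2 at 23.0 ± 2.73% and 14.5 ± 4.11%, and Dppa5a at 24.8 ± 7.05% and 15.6 ± 4.82%. All 4 were lower at day 4 in both lines, with falls between 2.0 and 3.36 on the log2 scale. Dppa2 and Dppa4 again rose at day 1, Dppa2 by 1.21 ± 0.18 and 1.76 ± 0.18 and Dppa4 by 1.04 ± 0.11 and 0.91 ± 0.11 in TXdXicB6 and TXdXicCast (edgeR, adjusted p = 2.9e-06, 5.04e-09, 8.88e-09 and 5.42e-08). At day 4 one of the pair did not pass in each line. Dppa4 differed from day 0 by −0.13 ± 0.11 in TXdXicB6 (adjusted p = 0.318) and Dppa2 by −0.19 ± 0.18 in TXdXicCast (adjusted p = 0.347). The calls for the other gene of the pair were not stable. Dppa2 in TXdXicB6 (−0.56 ± 0.18) lost its call without replicate 2 of day 0 (−0.44, adjusted p = 0.0602) or replicate 3 of day 4 (−0.38, 0.0809), and Dppa4 in TXdXicCast (−0.35 ± 0.11) without replicate 3 of day 4 (−0.21, 0.0819) or with library sizes alone (−0.10, 0.41). Sall4 in TXdXicB6 was at −0.25 ± 0.14 at day 4 (adjusted p = 0.114, and 0.0237 with the replicate block).

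Pou5f1 differed between the clones at both ends of the time course. In TXdXicB6 it had 1116, 1019.9 and 959.7 CPM at day 0 and 685, 647 and 714 CPM at day 4. In TXdXicCast it had 1852, 1425 and 1883 CPM at day 0, 1103, 1183 and 1111 CPM at day 1 and 529.8, 559 and 411 CPM at day 4. TXdXicCast was above TXdXicB6 in every library of day 0 and below it in every library of day 4, with overlap at day 1. Of the 9 genes, 3 differed between the lines at day 0 (19.8% of all genes), Pou5f1 by 0.74 ± 0.11, Dppa5a by 0.79 ± 0.20 and Dppa2 by −0.55 ± 0.18 (edgeR, TXdXicCast against TXdXicB6, adjusted p = 7.12e-05, 0.00472 and 0.0296). Dppa2 lost this call with the replicate block (−0.51, adjusted p = 0.0648) and when replicate 2 or 3 of TXdXicB6 or replicate 1 or 3 of TXdXicCast was left out (adjusted p between 0.09 and 0.184). None of the 9 differed at day 1 (0.402% of all genes), day 2 (0.372%) or day 3 (1.26%) by edgeR or DESeq2. At an unadjusted p under 0.05 there were 0 on days 1 and 2 and 1 on day 3, Sox2, at −0.65 ± 0.21. At day 4, 1 gene, Pou5f1, differed (5.86%), by −0.45 ± 0.11 (adjusted p = 0.0165). With the replicate block the day 4 difference was −0.44 (adjusted p = 0.0524), and the call was also lost without replicate 1 (−0.44, 0.0571) or 3 (−0.40, 0.0778) of TXdXicB6 or replicate 3 of TXdXicCast (−0.33, 0.215).

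The change from day 0 to day 4 itself differed between the lines for 2 of the 9 genes (15.0% of all genes), Pou5f1 by −1.18 ± 0.16 and Sall4 by −0.59 ± 0.19 (edgeR, interaction contrast, adjusted p = 0.000124 and 0.0392), both with the larger fall in TXdXicCast. The call for Sall4 is lost with library sizes alone (−0.47, adjusted p = 0.08) and without any 1 of 8 of the 12 libraries compared (adjusted p between 0.0569 and 0.136). With the replicate block 5 were called, Sox2 (−0.71, adjusted p = 0.00643), Dppa5a (−0.72, 0.0183) and Fbxo15 (0.60, 0.0463) in addition. Calls over all 19885 genes tested also went up with the block, from 2979 to 4790. This contrast includes the degraded day 0 RNA of TXdXicCast. A contrast from day 1 to day 4, added after the data had been seen, left that group out of the difference, and none of the 9 genes passed in it by edgeR or DESeq2 (0.749% of all genes). At an unadjusted p under 0.05 there was 1, Pou5f1, at −0.47 ± 0.16 (adjusted p = 0.202). Refitting without the day 0 libraries of TXdXicCast left the count of lower and higher genes in TXdXicB6 at day 4 at 6 and 1.

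Single cells showed in how many cells each transcript was found. Cells retained per day numbered 277, 325, 341, 257 and 272 from day 0 to day 4, with median depths of 138565, 124651, 125591, 130377 and 171158 UMIs (unique molecular identifiers, 1 per captured transcript molecule). A share is the percent of cells with at least 1 UMI, with its exact Clopper-Pearson interval, which covers counting error only because cells of 1 culture are not replicates. No test between days was made. Capture columns, 10 per day with 40 positions each, reuse the same row positions by design, and no cell was listed in 2 days. Each column of day 1, and of no other day, was also listed as sequenced in Rapid Run mode. The study gives that mode a shorter read of the transcript. In the cells, day 1 and this extra run cannot be told apart.

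Sall4 and Dppa5a were found in nearly all cells throughout. Sall4 was in 98.9% of day 0 cells and 97.8% (95% interval 95.3% to 99.2%) of day 4 cells, with a median of 44 and 37 UMIs per cell. Dppa5a was in 100.0% and 97.8% (95% interval 95.3% to 99.2%), but its median went from 597 to 63 UMIs and its upper quartile at day 4 was still 208.5. Of the genes with an early fall, Fbxo15 was in 98.9%, 77.2%, 38.7%, 35.0% and 20.2% (95% interval 15.6% to 25.5%) of the cells from day 0 to day 4. Tdh was in 100.0%, 100.0%, 81.2%, 74.3% and 56.6% (95% interval 50.5% to 62.6%), and Sox2 in 100.0%, 99.7%, 92.1%, 73.9% and 50.0% (95% interval 43.9% to 56.1%). Fbxo15 was in under 50% of cells by day 2, while Sox2 and Tdh were still found in at least 50% at day 4, at medians of 0.5 and 1 UMI where day 0 had 55 and 138. Up to 113 UMIs of Fbxo15, 83 of Sox2 and 268 of Tdh were counted in single cells of day 4, beside those medians.

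Utf1 was in 34.7%, 88.0%, 71.0%, 73.5% and 61.0% (95% interval 55.0% to 66.9%) of the cells, the only member found in fewer than 50% at day 0. Dppa2 was in 71.8%, 90.2%, 86.5%, 67.7% and 31.2% (95% interval 25.8% to 37.1%) and Dppa4 in 89.9%, 97.5%, 99.1%, 89.1% and 64.0% (95% interval 58.0% to 69.7%). As in bulk, these 3 genes were at their highest share at day 1 or day 2. All these cells came from the culture of bulk replicate 1. In bulk that replicate kept 37.5% of its day 0 level of Dppa2 at day 4, the lowest value, where replicate 3 kept 87.8%. Pou5f1 was in 75.8%, 77.2%, 73.6%, 65.8% and 55.1% (95% interval 49.0% to 61.2%), with a median of only 3 UMIs at day 0 and 1 at day 4. Whether cells without a UMI of it lacked the transcript was not tested.

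**Figure D4:**
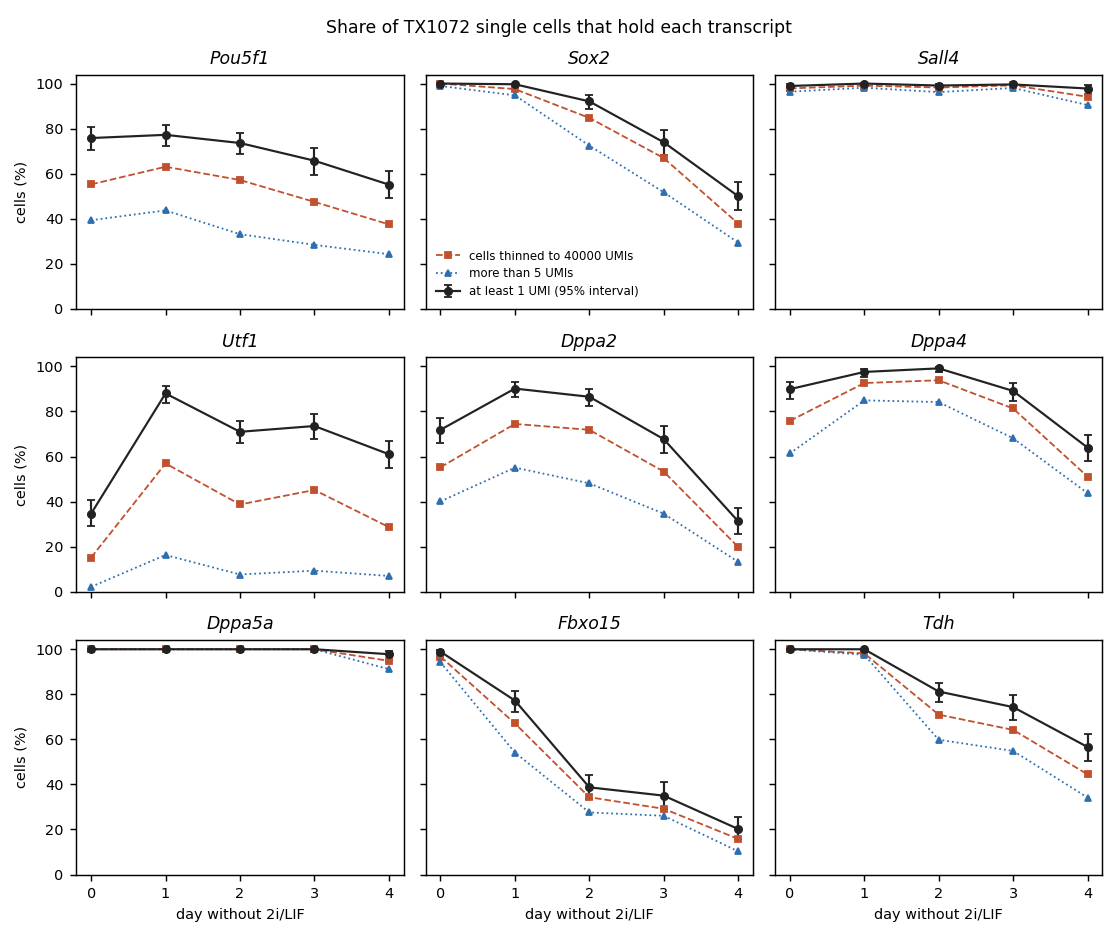
Percent of retained TX1072 cells with each transcript by day, as at least 1 UMI (with 95% Clopper-Pearson bars), as at least 1 UMI after thinning every cell to 40000 UMIs, and as more than 5 UMIs. Sall4 and Dppa5a stay above 90% by all 3 measures, Fbxo15 ends at 20.2% by the first, and the Utf1 share at day 1 is 88.0% by the first and 16.3% by the last.

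Depth moved these shares, and the day 4 cells were the deepest. With every cell thinned to 40000 UMIs, which left out no cell, the day 4 shares were 94.1% for Sall4, 94.9% for Dppa5a, 51.1% for Dppa4, 44.5% for Tdh, 37.9% for Sox2, 37.5% for Pou5f1, 28.7% for Utf1, 19.9% for Dppa2 and 15.8% for Fbxo15. The number of genes found in at least 50% of the day 4 cells was 7 without thinning and 3 with it. More than 5 UMIs were found at day 4 in 91.2% of cells for Dppa5a, 90.4% for Sall4, 43.8% for Dppa4, 34.2% for Tdh, 29.4% for Sox2, 24.3% for Pou5f1, 13.2% for Dppa2, 10.3% for Fbxo15 and 6.99% for Utf1. Sall4, Dppa5a and Dppa4 headed the list by all 3 measures.

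Background UMIs were gauged in capture sites that the study lists as empty, and their source was not tested. Day 4 had 19 such sites (in a list held here without its last lines, all for day 4 sites). Their median was 13124 UMIs, a depth well below the 171158 of the cells. There at least 1 UMI was found in 15.8% of sites for Fbxo15 (exact 95% interval 3.38% to 39.6%), 36.8% for Sox2, 42.1% for Tdh, 15.8% for Pou5f1, 31.6% for Dppa4, 5.26% for Utf1 and for Dppa2, 73.7% for Sall4 and 94.7% for Dppa5a. The Fbxo15 share of day 4 cells lies within the interval of the empty sites, as do those of Dppa5a (74.0% to 99.9% in the empty sites), Sox2 (16.3% to 61.6%) and Tdh (20.3% to 66.5%), so for these 4 genes a single UMI in a day 4 cell is not read as expression. Empty sites were fewer on the earlier days, 10, 7, 4 and 14 from day 0 to day 3, and their intervals are wide. They held the cell shares of Fbxo15 on day 1 (9.90% to 81.6%), day 2 (6.76% to 93.2%) and day 3 (12.8% to 64.9%), of Utf1 on day 0 (0.253% to 44.5%) and day 2 (0.631% to 80.6%), of Sox2 on days 0 and 2, of Tdh on days 0 and 1, of Sall4 on day 2 and of Dppa5a on each day, and the same limit holds for those shares. More than 5 UMIs were found in 4 of the 19 sites for Sall4, in 8 for Dppa5a, both in a smaller share than in the cells, and in 0 for the other 7 genes. A count of 0 allows a share of up to 15.8%, set here as 3 counts of the 19 sites and not as an exact interval. By this measure the cell shares above that limit were those of Dppa4 (43.8%), Tdh (34.2%), Sox2 (29.4%) and Pou5f1 (24.3%).

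The median cell had at least 1 UMI of 8 of the 9 transcripts at day 0, 9 at day 1, 7 at days 2 and 3 and 5 at day 4. All 9 had a UMI in 19.5% of day 0 cells, 50.8% of day 1 cells and 2.57% of day 4 cells, and after thinning in 6.5%, 16.9% and 1.47%. These counts rest on single UMIs, so the limit from the empty sites holds for them too and they are not read as the share of cells that express all 9. Pairs of genes were compared by their counts relative to the total of each cell. The highest Spearman's rho over the cells of a day was 0.17 at day 0 and 0.14 at day 1. It was 0.40 at day 2 (Dppa5a with Tdh, 341 cells), 0.49 at day 3 (Dppa5a with Fbxo15, 257 cells, and also 0.49 after thinning) and 0.32 at day 4 (Sox2 with Tdh, 272 cells). The lowest of day 4 was −0.13, for Sall4 with Dppa4. Detection still depends on the depth of each cell, and these values are given as a description.

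The counts summed over cells were set beside the bulk library of the same culture. As a percent of day 0, day 4 cells held 213.8% for Utf1 (160.0% in bulk replicate 1), 75% for Sall4 (80.6%), 70.0% for Dppa4 (57.6%), 60.6% for Pou5f1 (60.8%), 31.6% for Dppa2 (37.5%), 21.3% for Dppa5a (13.7%), 10.1% for Sox2 (12.4%), 9.30% for Tdh (8.93%) and 6.04% for Fbxo15 (7.67%). By either measure Utf1 was above its day 0 level at day 4 and Dppa5a, Sox2, Tdh and Fbxo15 were below 25% of it. On the way there the measures differed by more than 1.5 times for 2 genes on day 2, Dppa5a with 52.3% in cells (41.5% on day 1) and 32.7% in bulk (51.0% on day 1), and Utf1 with 301.9% in cells and 578% in bulk. At day 4 they differed by as much for Dppa5a. The absolute levels did not match for 2 genes: Pou5f1 had 57.6 CPM in the day 0 cells and 908 CPM in the bulk library, a ratio of 15.8, and Utf1 had 5.31 and 28.8 CPM, a ratio of 5.41. For the other 7 genes this ratio was between 0.50 and 1.10 at day 0. Why 3′ tags of Pou5f1 and Utf1 were rare was not tested.

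Reads that cover a SNP between B6 and Cast gave a readout that the choice of genes had not used, the share of allele-assigned counts on B6. For Fbxo15 in TX1072 it was 52.8%, 55.3% and 52.2% in the day 0 libraries and 79.1%, 78.9% and 79.8% at day 4. Without overlap, the mean went from 53.4 ± 1.63% to 79.3 ± 0.430% (SD, n = 3), so the remaining transcript came mostly from the B6 allele. The libraries also separated in TXdXicB6 (54.8 ± 3.70% to 80.1 ± 4.43%) and TXdXicCast (51.4 ± 2.66% to 74.7 ± 1.95%). Dppa5a in TX1072 had 60.8%, 63.4% and 51.0% at day 0 and 84.0%, 79.2% and 79.0% at day 4. Its mean went from 58.4 ± 6.56% to 80.8 ± 2.82% in TX1072, from 41.3 ± 1.08% to 65.4 ± 0.932% in TXdXicB6 and from 41.1 ± 0.319% to 66.2 ± 1.93% in TXdXicCast, so that in the deletion lines it passed from mostly Cast to mostly B6. Dppa4 had 48.4%, 48.1% and 48.0% at day 0 in TX1072 and 72.8%, 66.9% and 66.2% at day 4. It went the same way in TXdXicB6 (48.0 ± 1.90% to 62.9 ± 1.52%) and less far in TXdXicCast (51.6 ± 2.95% to 58.7 ± 1.98%). In all 3 lines the day 0 and day 4 libraries of these 3 genes did not overlap.

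Its neighbour Dppa2 came mainly from B6 on both days, with 91.4 ± 1.90% at day 0 and 84.4 ± 1.47% at day 4 in TX1072. Tdh, with a fall at day 4 close to that of Fbxo15, was near equal between the alleles at both ends, at 50.4 ± 1.26% and 52.2 ± 1.94% in TX1072, with 55.4 ± 0.471% on day 1 and 57.7 ± 0.597% on day 2 between them. In TXdXicCast it went from 46.1 ± 0.925% at day 0 to 53.0 ± 0.276% at day 4. Pou5f1 stood at 50.1 ± 3.35% and 47.8 ± 3.82%, Sall4 at 47.2 ± 0.566% and 45.1 ± 0.896%, Sox2 at 59.6 ± 0.890% and 65.2 ± 5.67%, and Utf1 at 46.8 ± 3.42% and 53.2 ± 1.25%. In TX1072 the libraries of the 2 days did not overlap for 5 of the 9 genes in the upward direction (15.3% of 9469 genes) and for 2 in the downward direction (16.5%). The numbers were 4 up (18.2% of 7727 genes) and none down (15.7%) in TXdXicB6, and 4 up (19% of 9992 genes), Tdh among them, and 1 down (20.9%) in TXdXicCast. The median size of the change over all genes was 3.43 percentage points in TX1072, 3.32 in TXdXicB6 and 3.8 in TXdXicCast, beside 25.9, 25.3 and 23.3 for Fbxo15. An exact permutation test of 3 against 3 libraries cannot go below 0.1. Allele counts behind a library's value ranged from 45 for Pou5f1 to 66566 for Dppa5a. Over all genes, the day 0 libraries of TXdXicB6 held 1347911 to 10218184 allele counts, at total counts of 23498971 to 30692612. Why their allele counts differed so far was not tested. Single cells gave 53.9% and 74.4% on B6 for Fbxo15 and 64.3% and 87.0% for Dppa5a at days 0 and 4, from 1863 and 133 and from 14622 and 3011 allele UMIs. Dppa4 differed here from bulk, with 34.1% of 437 allele UMIs on B6 in day 0 cells, 51.6% of 752 on day 2 and 43.3% of 358 on day 4, so that Cast held the larger part at both ends of the course. Sall4 was also lower in cells, with 38.4% of 4367 allele UMIs at the start and 34.5% of 3962 at the end. Sox2 went from 64.0% of 1406 allele UMIs to 83.7% of only 135, beside bulk means of 59.6% and 65.2% in TX1072. Tdh went from 49.0% of 12130 to 56.0% of 1199, while Dppa2 had 94.4% of 198 and 91.8% of 73. Pou5f1 and Utf1 had 15 or fewer allele UMIs on either day.

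**Figure D5:**
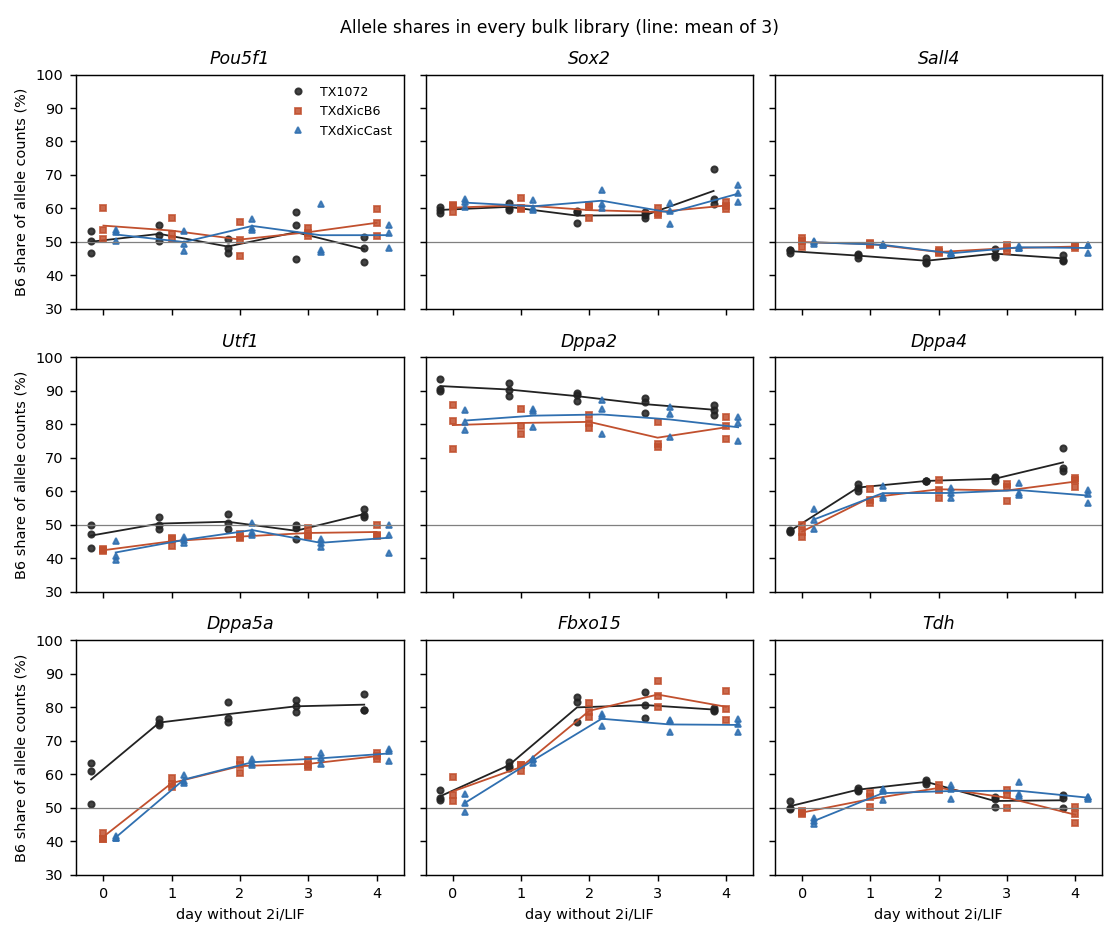
Percent of allele-assigned counts on the B6 chromosome for each gene by day, with 1 point per bulk library and 1 line through the means of each line. The shares of Fbxo15, Dppa5a and Dppa4 are higher at day 4 than at day 0 in every library of all 3 lines, while Pou5f1 and Sall4 stay near 50%.

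Unspliced reads, counted for 8 of the 9 genes in the single-cell tables, made up 7.39% of the spliced and unspliced UMIs of Fbxo15 in day 0 cells (exact 95% interval 6.92% to 7.88%). In day 1 cells the value was 14.3% (13.3% to 15.3%), and in day 4 cells 5.29% (3.85% to 7.06%). Day 1 cannot be told apart here from its extra Rapid Run sequencing. Dppa4 had 3.82% at day 0 (3.16% to 4.57%) and 9.03% at day 4 (7.95% to 10.2%). For Dppa2 the values were 5.05% (4.11% to 6.12%) and 0.592% (0.161% to 1.51%), lower at day 4 where Dppa4 was higher. The fall of Dppa2 was not steady, with 0.964% on day 2 (0.612% to 1.44%) and 3.97% on day 3 (3.00% to 5.15%). Sall4 had 3.15% at day 0 and 6.58% at day 4, Pou5f1 4.23% and 3.64%, Tdh 1.75% and 1.15%, and Dppa5a 1.14% and 0.929%. Utf1 had 0 spliced and 0 unspliced UMIs at day 0, although 34.7% of those cells had a UMI of it in the main counts. Its percent at day 4 was 0.385 of 519 UMIs. Over all genes the percent was between 10.7 and 13.3 on every day, and highest on day 1.

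Against this, all 13 listed naive factors were lower in TX1072 at day 4 (29.4% of all genes), with a median of −3.81 beside −1.0 for the 9 genes. The largest falls were Klf4 (−5.66 ± 0.23), a Krüppel-like factor of the naive network, Prdm14 (−5.26 ± 0.18), which represses differentiation genes in naive cells, and Nr0b1 (−4.80 ± 0.17) (edgeR, adjusted p = 5.26e-13, 5.9e-14 and 7.89e-14). The smallest was Dppa3 (−1.39 ± 0.17, adjusted p = 1.45e-06), also a gene of the germline and oocyte and not among the 9 genes. Tdh and Fbxo15, at −3.32 and −3.27, lay nearest to that median among the 9. Of 16 other genes of the pluripotency circuit, 7 were lower, 5 higher and 4 did not pass, with a median of −0.17. Lin28a, an RNA-binding protein that blocks let-7, rose by 2.66 ± 0.13, Foxd3 and Sall1 were at −2.45 ± 0.23 and −1.86 ± 0.16, and Thap11 was at −0.08 ± 0.14 (adjusted p = 5.25e-12, 4.42e-08, 1.05e-08 and 0.623). Of 11 formative and primed genes, 8 were higher and 1 was lower, with a median of 1.35. Fgf5, the growth factor that marks the primed epiblast, went from 0.189, 0.114 and 0.0450 CPM to 141, 131 and 135 CPM, Sox11 rose by 4.43 ± 0.25 and Sox3 by 2.26 ± 0.23, and Zic2 was at 0.01 ± 0.19 (adjusted p = 3.46e-11, 1.16e-07 and 0.969). Utf1 was the one member whose sign was that of this list.

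Around Tdh, 7 of 10 listed enzymes of threonine, glycine and one-carbon metabolism were lower at day 4, 2 were higher and 1 did not pass, with a median of −0.82. Amt (−1.30 ± 0.11) and Gcsh (−1.21 ± 0.12), subunits of the glycine cleavage system, and Shmt2 (−1.28 ± 0.15), the mitochondrial serine hydroxymethyltransferase, had the largest falls, and Dld, a subunit shared with other complexes, was at −0.06 ± 0.13 (edgeR, adjusted p = 1.5e-08, 1.21e-07, 9.73e-07 and 0.726). The fall of Tdh itself was −3.32 ± 0.17. Around Fbxo15, none of the 4 tested core subunits of the Skp1-Cul1 ubiquitin ligase passed by edgeR, nor did any at an unadjusted p under 0.05, and Nedd8 was nearest to no change at −0.09 ± 0.13 (adjusted p = 0.61). Of 14 tested Sox, Sall and Pou paralogs 7 were lower and 7 higher. Sox4 and Sall2 rose by 4.39 ± 0.24 and 3.34 ± 0.14, where Sox2 and Sall4 fell, and Pou2f1 was at −0.64 ± 0.18 (adjusted p = 2.62e-11, 6.11e-13 and 0.00519).

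Markers of other cell types moved over the same days. The 10 mesendoderm markers summed to 15.5, 21.8 and 20.2 CPM at day 0 and to 393, 198 and 159 CPM at day 4, with T, the brachyury gene, the most abundant, and 8 of 9 tested were higher. Eomes rose by 4.93 ± 0.24 (edgeR, adjusted p = 6.03e-12) and Gsc was at 0.42 ± 0.46 (0.461). Cer1 and Foxa2 were higher over the 3 replicates (edgeR, adjusted p = 1.25e-05 and 4.58e-07) and reached 9.91 and 28.9 CPM in replicate 1 of day 4. That replicate had the highest mesendoderm sum of day 4 and also the lowest level of 7 of the 9 genes, all but Pou5f1 and Sox2. The single cells of day 4 came from the same culture. Neural markers summed to 75.3, 103 and 67.5 CPM at day 0 and 182, 195 and 211 CPM at day 4, led by Nes (1.70 ± 0.12, adjusted p = 1.1e-09) on the latter day, and 4 of 5 tested were higher. Pax6, Map2 and Tubb3 were among them at 2.32 ± 0.52, 1.49 ± 0.19 and 0.66 ± 0.22. Trophoblast markers summed to 7.60, 17.4 and 8.05 CPM at day 0, nearly all of it Cdx2 with Hand1 and Tpbpa at 0, and to 62.9, 63.5 and 64.6 CPM at day 4, nearly all of it Krt7, with Tpbpa at 0 in 1 library, Hand1 under 2 CPM and Cdx2 lower than at day 0 (−2.32 ± 0.37). Fibroblast markers summed to 20.4, 25.3 and 29.2 CPM at day 0 and 15.0, 16.9 and 16.4 CPM at day 4, and of the 5 tested, 2 were lower, 2 higher and 1 did not pass. Col1a1 and Col1a2 were lower (−0.97 ± 0.20 and −2.41 ± 0.24, edgeR, adjusted p = 0.000354 and 8.28e-08), and Thy1 was at −0.17 ± 0.23. Dcn and Postn were higher (edgeR, adjusted p = 8.24e-09 and 0.000142) at low levels. Dcn had 0, 0 and 4 counts at day 0 and 99, 121 and 155 at day 4, and Postn had 0, 1 and 0 counts at day 0 and 14, 10 and 23 at day 4. In the deletion lines the mesendoderm sums went from 24, 26.0 and 22.7 CPM at day 0 to 92.1, 135 and 106 CPM at day 4 in TXdXicB6, with 5 of 9 tested higher and 2 lower, and from 29.6, 20.5 and 29.0 CPM to 82.6, 67.3 and 224 CPM in TXdXicCast, with 7 higher and 1 lower. Eomes was the most abundant at day 4 in all of these libraries but the last, where T was. Neural sums at day 4 were 111, 143 and 148 CPM in TXdXicB6 and 157, 197.8 and 107 CPM in TXdXicCast. At day 0 they ranged from 73.3 to 84.8 CPM in TXdXicB6 and from 104 to 137 CPM in TXdXicCast, the latter overlapping day 4. Trophoblast sums at day 4, mostly Krt7, were 29.3, 31.0 and 31.2 CPM in TXdXicB6 and 57.6, 59.8 and 87.0 CPM in TXdXicCast. Their day 0 means were 16.4 and 23.0 CPM. Fibroblast sums at day 4 were 20.2, 24.8 and 19.4 CPM and 24.3, 25.4 and 30.4 CPM, below day 0 means of 39.2 and 62.2 CPM. Between the lines at day 4, where Pou5f1 differed, 5.86% of all genes were called (1165 by edgeR, and 710 with the replicate block). Higher in TXdXicCast were 2 of 5 fibroblast markers (Col1a1 and Col1a2), 1 of 4 trophoblast markers (Krt7) and 1 of 9 mesendoderm markers (Gata6). So were 2 of 13 naive factors and 1 of 15 Sox, Sall and Pou paralogs. Lower there were 5 of 16 circuit genes, 3 of 11 formative and primed genes, 2 of 10 enzymes of the list around Tdh and 3 of the 15 paralogs (edgeR). What part cells of other types had in the falls of the 9 genes or in the differences between the lines was not tested.

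Genes that ran most like each member were found by Pearson's r of log2 CPM over the 15 TX1072 libraries, with r over the 30 deletion-line libraries given second, among 11002 genes with a mean count of at least 100. They share libraries and days, and r is a description. Closest to Tdh were Nr5a2 (0.99, 0.98) and Alpl (0.99, 0.97), to Dppa5a Spp1 (0.99, 0.94) and Ooep (0.99, 0.97), to Fbxo15 Sod2 (0.98, 0.94) and Spp1 (0.97, 0.94) and to Dppa4 Rhox5 (0.99, 0.85). Closest to Utf1 were Adad2 (0.97, 0.93) and Col6a5 (0.96, 0.88), to Dppa2 Actr3b (0.96, 0.90) and Clca3b (0.95, 0.91), to Sox2 Klf9 (0.97, 0.86) and Naa11 (0.96, 0.93), to Pou5f1 Abhd11 (0.96, 0.93) and Rcc2 (0.95, 0.96) and to Sall4 Nat10 (0.86, 0.76) and Sin3a (0.86, 0.87). Among the 9 genes themselves r was 0.97 and 0.91 for Dppa5a with Fbxo15, 0.97 and 0.94 for Dppa5a with Tdh, 0.96 and 0.95 for Fbxo15 with Tdh and 0.93 and 0.91 for Dppa2 with Dppa4. Pou5f1 and Sox2 had 0.84 and 0.90, and Utf1 with Fbxo15 had −0.43 and −0.32. Sall4 had no gene above 0.86 in TX1072.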

How the data were processed

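Bulk and single-cell RNA-seq libraries were processed by the authors: reads were aligned with STAR 2.5.2b to mm10 masked at SNPs between B6 and Cast and split by allele. The deposited bulk values are raw read counts per gene from uniquely aligned reads, and the deposited single-cell values are counts of exonic UMIs, with separate tables of allele, spliced and unspliced counts. The strand setting of bulk counting is not given in the sources used here, so Pou5f1, Sall4 and Tdh cannot be told apart from the antisense genes that share their exons, and reads of Dppa5a may be split with its near copies Dppa5b and Dppa5c. Cells are those in the study's list of classified cells. The list of empty capture sites was held here without its last lines. The 9 genes, the gene lists and the rule for named genes (in each list, the 3 largest changes past the threshold and the smallest change, in TX1072 at day 4 against day 0; for likeness, the 2 genes with the highest r) were chosen with earlier results of these data known. Some items that these rules select are not reported here.

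Bulk counts were filtered with filterByExpr, scaled by TMM and tested with edgeR 4.0.16 (quasi-likelihood, R 4.3.3) across all genes, TX1072 and the deletion lines in separate fits without a replicate block, with Benjamini-Hochberg adjustment and a threshold of 0.05. DESeq2 1.42.0, other scalings, no filter, the block and each library left out were alternatives. Likeness used log2 CPM with a prior count of 2. Allele shares needed at least 20 allele-assigned counts per library. Depth was 16906263 to 57920260 counts per bulk library and 43060 to 300322 UMIs per cell, and intervals cover counting error only. The study's reporting summary gives each replicate its own date of induction. That libraries of 1 line with the same number share that date was inferred from it, and the block was fitted within each line, with nothing assumed between lines. The median correlation of deviations between same-numbered libraries of 2 days was 0.13 in TX1072, 0.20 in TXdXicB6 and 0.15 in TXdXicCast, beside −0.07, −0.10 and −0.11 for other numbers. On simulated counts with 200 genes changed by 1 on the log2 scale, 76.5% were recovered in the TX1072 comparison of day 4 with day 0 and 81.0% in that of TXdXicB6. Summaries and figures were made with Python 3.11.15, pandas 2.3.3, scipy 1.17.1 and matplotlib 3.10.9.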

Additional observations from a re-analysis of the deposited data

Results flagged for a closer look

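Each day's cells were captured in 10 columns, and 45 sets of column values of the 9 genes were screened for a column far from the others, which chance gives in about 1 set in 20. At day 0, column 3 had 39.1 CPM of Dppa4, where the other columns had 70.2 to 87.9 CPM. At day 1, column 4 had 89.5 CPM of Pou5f1 (others 45.8 to 68.4), and column 2 had the highest level of 3 genes, with 350.1 CPM of Sox2 (others 210.3 to 282), 416 CPM of Sall4 (others 238 to 321) and 40.1 CPM of Utf1 (others 21.1 to 27.9). At day 4, column 7 had 53.0 CPM of Fbxo15 (others 2.86 to 28.1), and without it the level over all cells was 12.9 CPM in place of 17.1. Column values are parts of 1 culture, and what set these columns apart was not tested.

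The deletion lines differed in the change from day 0 to day 4 for 2 of the 9 genes (15.0% of all genes). These were Pou5f1 by −1.18 on the log2 scale (edgeR interaction contrast, adjusted p = 0.000124) and Sall4 by −0.59 (adjusted p = 0.0392), TXdXicCast against TXdXicB6. The call for Sall4 was lost when any of several single libraries was left out. None of the 9 genes passed in the contrast from day 1 to day 4 (0.749% of all genes). At day 0 the clone and the partly degraded RNA of TXdXicCast cannot be told apart.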

How the results depend on the processing

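No change of the 9 genes past the threshold was reversed by an alternative that was run. Without the filter on low counts, lower genes numbered 6 in place of 3 from day 1 to day 2 and 4 in place of 1 from day 2 to day 3 in TX1072. TXdXicCast had 1 gene higher at day 4, Utf1, in place of 0 with library sizes alone, without the filter and with the replicate block. Between the lines, 1 in place of 0 genes differed at day 3 without the filter, and 4 in place of 1 at day 4 without it and 0 with the replicate block. Their change from day 0 to day 4 differed for 1 gene in place of 2 with library sizes alone, 5 without the filter and 5 with the block. Leaving out 1 library at a time gave 1 to 3 lower genes from day 2 to day 3 in TX1072, 0 to 1 higher at day 4 in TXdXicB6 and in TXdXicCast, and between the lines 0 to 1 on day 3 and 0 to 3 on day 4, with 1 to 3 for the change. The causes were not tested. DESeq2, its size factors, TMM on autosomal genes and a minimum of 50 allele counts moved no such count by over 1.5 times, nor did leaving out day 0 of TXdXicCast, which was chosen after the data had been seen. Beyond the calls named beside the results, the replicate block changed no call of the 9 genes in the comparisons reported.

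In cells, the genes found in at least 50% were 5 in place of 8 at days 2 and 3 with more than 5 UMIs, and at day 4, in place of 7, they were 4 over all capture sites, 3 after thinning, 3 with at least 2 UMIs and 2 with more than 5. The most alike gene was the same by Spearman's rho for 1 of the 9 genes.

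Over all genes, calls between the lines were 80 at day 1 (140 by DESeq2, 198 without the filter), 74 at day 2 (135, 200), 251 at day 3 (495, 575, and 112 with the block), 1165 at day 4 (710 with the block), 2979 for the change from day 0 to day 4 (4790 with the block) and 149 from day 1 to day 4 (353, 412, and 441 with the block). Library sizes alone moved the median of all genes at day 4 in TXdXicCast from 0.06 to 0.30 on the log2 scale and the share of higher genes among calls from 51.8% to 62.2%. That share went from 57.4% to 68.8% between days 3 and 4 of TX1072, from 52.2% to 62.4% for TXdXicCast at day 3, and from 52.4% to 68.1% for the change that differed between the lines. For their comparison at day 0 it went from 49.9% to 27.5%. The shares of Pou5f1 and Utf1 in cells rest on medians of 3 UMIs or fewer at days 0 and 4, and why these were so low was not tested.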
